A study of Mus musculus with 4 samples.

Results

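Axon guidance genes encode secreted or membrane-bound cues and the receptors that read them. Semaphorins bind plexins, class 3 semaphorins mostly through neuropilin co-receptors, and their extracellular sema domain is shared with the Met receptor. Ephrin-A and ephrin-B ligands are held on the cell surface and activate the Eph receptor tyrosine kinases on neighbouring cells, Slit proteins bind Robo receptors, and netrins bind Dcc and neogenin. Outside the nervous system the same families guide migrating neural crest cells, from which melanocytes arise, and growing blood vessels.

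The genes described here are the mouse RefSeq genes whose symbols name a semaphorin, plexin, Eph receptor, ephrin, Robo or Slit family member, together with *Nrp1*, *Nrp2*, *Ntn1*, *Ntn4*, *Dcc* and *Neo1*. The rule used gene names, though it was chosen with earlier results of these data known. It gave 65 genes of 20832 with a named probe on the array, among them *Plxna4os1*, an antisense RNA at the *Plxna4* locus. They were measured in B16-F10, a mouse melanoma cell line, sorted by surface Met into Met-low and Met-high cells and cultured for 3 days in serum-containing medium without further treatment. For each population, RNA of 2 samples prepared independently was hybridised to 1-colour Agilent arrays, 4 arrays in all. By their labels the populations differ in the sort alone, all being the same line, while their positions on the slide differ as given below. The sort was on surface protein, and the arrays report RNA after the culture, so cells that changed their Met level in those days cannot be told apart from cells that did not.

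All arrays lay on 1 slide with 1 scan, the Met-low arrays at positions 1 and 2 and the Met-high arrays at positions 3 and 4, which leaves slide position and population impossible to tell apart. Signals are given as log2 of the background-corrected intensity relative to the 75th percentile of the array, and ratios as the Met-high minus the Met-low mean on that log2 scale. *Met* itself was at -0.26 and -0.89 on the Met-low arrays and at 1.03 and -0.43 on the Met-high arrays. The array of Met-high replicate 2 therefore lay between the Met-low arrays for the gene that the sort was based on, and the ratio of each guidance gene is given below with and without it. Without it, Met-high cells are represented by 1 array assumed to vary like the Met-low arrays, so a smaller p there is no added support. All 7 melanocyte lineage markers examined were well above background on every array, from *Mitf* and *Sox10* to *Pmel*, with ratios between -0.14 and 0.53. Of the markers of other cell types, *Ptprc* (leukocytes), *Cdh5* and *Tek* (endothelium) and *Rbfox3* and *Syt1* (neurons) were above background on no array, whereas *Cd3e* and *Itgam* (leukocytes), *Kdr* and *Vwf* (endothelium) and *Tubb3* and *Snap25* (neurons) were above it on all arrays.

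Of the 65 guidance genes, 39 (60.0%) were flagged by the scanner software as well above background on each array of 1 population or more, against 57.4% of all genes. There were 36 above background on all arrays in this sense, with 1 more in Met-low and 2 more in Met-high cells, and these 39 entered the comparison. The 2 neuropilins were both detected, as were 13 of 20 semaphorins, 6 of 9 plexins, 3 of 5 ephrin-A ligands, 5 of 9 EphA receptors, 2 of 3 ephrin-B ligands and 4 of 5 EphB receptors. *Slit2* alone of 3 Slit ligands and *Robo1* alone of 4 Robo receptors were detected. The netrin receptors *Dcc* and *Neo1* were both detected, and the netrins *Ntn1* and *Ntn4* were not. Of the 26 genes left, 21 were above background on no array, which sets a limit on the signal and does not show that the transcript is absent. The other 5, *Sema3a*, *Plxnb3*, *Epha7*, *Slit1* and *Ntn1*, were above it on some arrays without reaching both of a population. *Ntn1* reached it on Met-low replicate 1 alone, at -4.22, and *Sema3a* on Met-low replicate 2 alone, at -4.04.

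**Figure D1:**
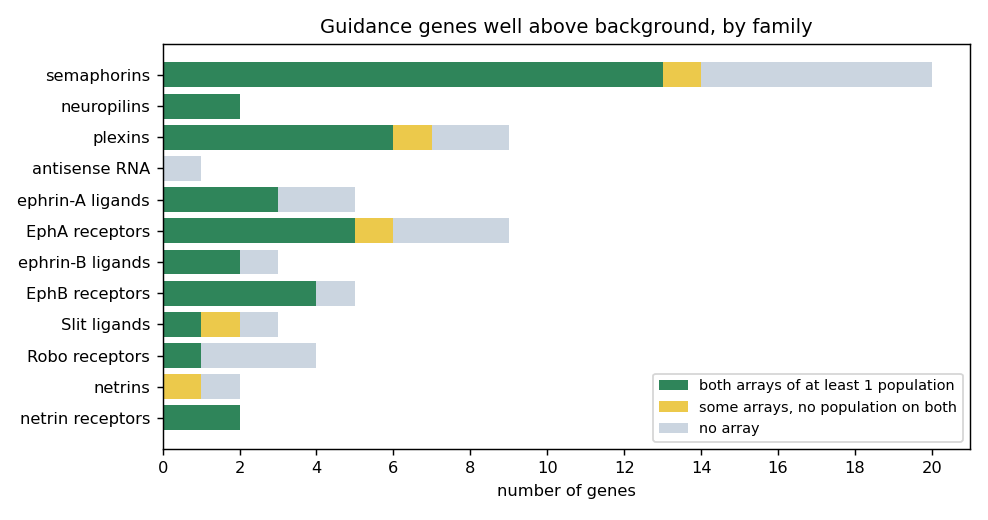
Number of guidance genes in each family whose probe was well above background on every array of a population (green), on some arrays only (yellow) or on no array (grey). Of the semaphorins 13 of 20 are in the green class, and of the netrins 0 of 2.

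Between the populations, *Plxna4*, *Nrp1* and *Sema6a* fell in Met-high relative to Met-low cells and *Sema7a* rose, each with an adjusted p under 0.05 (limma with Benjamini-Hochberg adjustment over 11958 genes). Thus 3 of 39 genes were higher in Met-low cells and 1 of 39 in Met-high cells, against 3.82% and 1.95% of all genes tested. By a 2-fold difference of the means without a test, 6 of 39 were higher in Met-low cells, with *Sema3c*, *Epha4* and *Dcc* as the additional ones, and 1 of 39 in Met-high cells, against 5.29% and 2.43% of all genes. With so few genes these counts were not tested against the rest. Without Met-high replicate 2 the ratio of *Sema3c* was -3.41, set against a single Met-high array on which it was not above background. That of *Epha1* was then 1.11. Arrays of the populations did not overlap for 10 genes higher in Met-low cells (25.6%) and 14 higher in Met-high cells (35.9%), against 22.6% and 35.8% of all genes, so these shares were near those of the whole array. The median ratio was 0.15 over the 39 genes and 0.10 over all genes, and 24 of the 39 (61.5%) had the higher mean in Met-high cells, near the 59.5% of all genes. With the 75th percentile taken over detected probes alone, which moved the median of all genes to -0.05, this was 20 of 39. The calls of *Plxna4*, *Nrp1*, *Sema6a* and *Sema7a* were lost where dim probes were kept in the fit, at adjusted p of 0.102, 0.126, 0.108 and 0.0747. Over all genes that fit called 7 higher in Met-low and 0 higher in Met-high cells, against 457 and 233 in the main fit. The ratios of these genes were the same in both fits. With normexp background correction, which added an offset of 50 to each intensity, all 4 passed the adjusted p in limma at smaller ratios. These were -1.88 for *Plxna4*, -1.07 for *Nrp1*, -0.93 for *Sema6a*, under 2-fold, and 1.48 for *Sema7a*. Such an offset lowers ratios of dim signals. The p-values rest on the spread between these 2 samples of each population, which limma draws towards the spread over all genes tested. In RNA from whole populations fewer cells expressing a gene and less RNA per cell cannot be told apart.

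**Figure D2:**
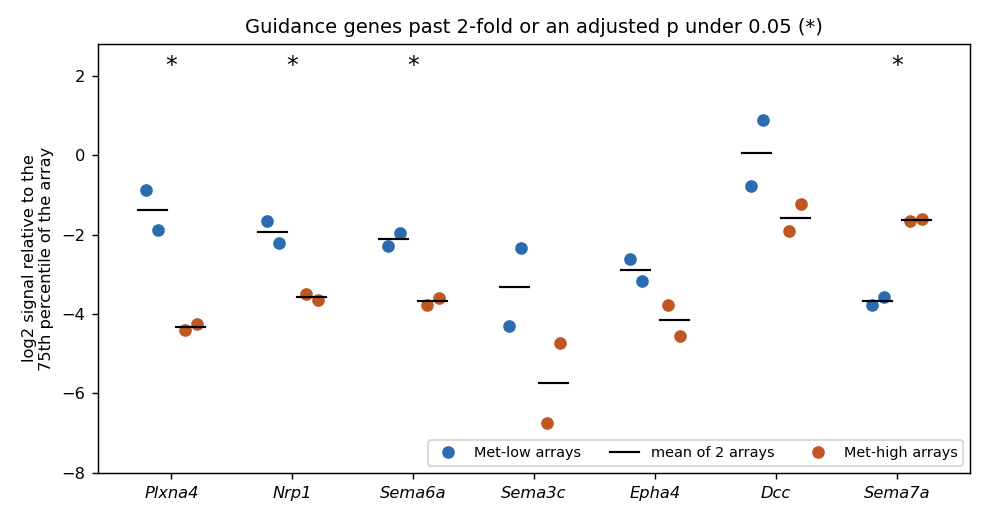
Log2 signal of the 7 guidance genes past 2-fold or the adjusted p, on each Met-low array (blue) and Met-high array (orange), with black lines at the mean of 2 arrays and an asterisk at an adjusted p under 0.05. In 6 genes both Met-low arrays lie above both Met-high arrays, and in Sema7a the order is the opposite.

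Receptors for semaphorins included the largest difference in the whole set. *Plxna4* (NM_175750), which encodes plexin A4, a receptor for class 6 semaphorins and, with neuropilin, for class 3 semaphorins, was at -0.88 and -1.90 on the Met-low arrays and at -4.41 and -4.25 on the Met-high arrays. The populations were apart by more than 2 log2 units at their nearest arrays. The Met-low mean was -1.39 ± 0.72 (SD, n = 2) and the Met-high mean -4.33 ± 0.12 (SD, n = 2), which differ by -2.94 on the log2 scale (standard error 0.35, limma adjusted p = 0.017). Without Met-high replicate 2 the ratio was -3.03 (adjusted p = 0.00276), and leaving out any single array kept it between -3.45 and -2.43. A second probe of *Plxna4* was above background on no array, so the difference rests on 1 probe, and the mean of both probes gave -1.60 (limma adjusted p = 0.043). *Plxna4os1* on the other strand was also above background on no array.

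*Nrp1* (NM_008737) encodes neuropilin-1, the co-receptor for class 3 semaphorins that also binds VEGF. Its level was -1.67 and -2.21 in Met-low cells against -3.50 and -3.64 in Met-high cells, without overlap. The ratio was -1.63 (limma adjusted p = 0.024, standard error 0.23), and -1.56 (adjusted p = 0.0181) without Met-high replicate 2. *Nrp2*, the other neuropilin, was at 4.50 and 4.11 in Met-low and at 4.59 and 4.0 in Met-high cells, so that the arrays overlapped. The difference for *Nrp2* was -0.01 (95% interval -0.68 to 0.66), and its second probe was also above background on all arrays. The *Nrp2* ratio turned to 0.28 without Met-high replicate 2 (adjusted p = 0.653).

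The other plexins well above background differed by less than 2-fold. The class A plexin *Plxna1* had a ratio of 0.15 (95% interval -0.34 to 0.63) and *Plxnd1*, a receptor best known from blood vessels, 0.14 (-0.54 to 0.82). *Plxnb1*, the receptor for semaphorin 4D whose protein can associate with Met, differed by 0.49 (-0.32 to 1.29), and *Plxnb2* by 0.11 (-0.29 to 0.51). For *Plxnc1*, the receptor of semaphorin 7A, the arrays overlapped and the difference was -0.12 (-0.82 to 0.59). These are intervals for single genes from limma, without adjustment, and those of *Plxnb1* reach past a 2-fold difference in favour of Met-high cells. Leaving out Met-high replicate 2 gave ratios of 0.29 for *Plxna1*, 0.36 for *Plxnd1*, 0.76 for *Plxnb1*, 0.075 for *Plxnb2* and -0.40 for *Plxnc1*, with adjusted p from 0.271 to 0.912.

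Among the semaphorins, *Sema7a* (NM_011352), which encodes the lipid-anchored semaphorin that signals through plexin C1 and through integrins, had the firmest difference. It was at -3.77 and -3.58 on the Met-low arrays and at -1.66 and -1.60 on the Met-high arrays, with little spread within either population. The ratio was 2.04 (limma adjusted p = 0.00811, standard error 0.16) and 2.01 (adjusted p = 0.00275) without Met-high replicate 2, and it stayed between 1.95 and 2.14 with each array left out.

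*Sema6a* (NM_018744) encodes a transmembrane semaphorin that binds plexins A2 and A4. It was at -2.28 and -1.95 in Met-low and at -3.76 and -3.59 in Met-high cells, again without overlap, a ratio of -1.55 (limma adjusted p = 0.0178, standard error 0.19). Without Met-high replicate 2 the ratio was -1.64 (adjusted p = 0.00906). The other class 6 genes had their higher mean in Met-high cells, *Sema6b* with a ratio of 0.37 (adjusted p = 0.274), *Sema6c* with 0.34 (adjusted p = 0.271) and *Sema6d* with 0.94 (adjusted p = 0.0704). *Sema6d* was at 2.31 and 1.90 in Met-low and at 3.18 and 2.91 in Met-high cells, so its arrays did not overlap although the adjusted p was missed. Leaving out Met-high replicate 2 gave 0.415 for *Sema6b*, 0.23 for *Sema6c* and 1.08 for *Sema6d* (adjusted p = 0.0674 for the last). Of these plexins that bind semaphorin 6A, *Plxna2* was above background on no array and *Plxna4* was the gene described above.

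Class 3 semaphorins, the secreted ligands of neuropilin complexes, did not move together. *Sema3c* (NM_013657), a cue for neural crest cells in the developing heart, was at -4.31 and -2.35 in Met-low and at -6.73 and -4.73 in Met-high cells. The arrays did not overlap, but replicates of a population lay about as far apart as the populations did, and on Met-high replicate 1 the probe was not above background. The ratio of -2.41 (limma adjusted p = 0.166, standard error 0.87) did not pass, while leaving out Met-high replicate 2 gave -3.41 (adjusted p = 0.0148), a value set against the single array on which the probe was not above background. Its second probe was above background on no array. *Sema3b*, an inhibitory semaphorin studied as a tumour suppressor, was at 4.66 and 3.82 in Met-low and at 3.57 and 2.99 in Met-high cells, a ratio of -0.96 (adjusted p = 0.165). *Sema3f*, which binds neuropilin-2, went the other way, from -3.77 and -4.29 in Met-low to -2.96 and -3.14 in Met-high cells, a ratio of 0.98 (adjusted p = 0.072). Neither passed the adjusted p, although in both the arrays did not overlap. Without Met-high replicate 2 the ratios were -0.67 for *Sema3b* (adjusted p = 0.364) and 1.07 for *Sema3f* (adjusted p = 0.0827). *Sema3a*, *Sema3d*, *Sema3e* and *Sema3g* were not detected.

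The class 4 semaphorins, transmembrane ligands of B-type plexins and plexin D1, were within 2-fold. Their ratios ran from -0.10 for *Sema4d* over 0.18 for *Sema4f*, 0.19 for *Sema4a* and 0.40 for *Sema4b* to 0.55 for *Sema4c*, with adjusted p from 0.198 to 0.857. *Sema4c* was at 6.66 and 6.19 in Met-low and at 7.09 and 6.86 in Met-high cells, the only gene of this class whose arrays did not overlap. *Sema4b* without Met-high replicate 2 had a ratio of 1.02 (adjusted p = 0.111), since that array, at -1.07, lay within the range of the Met-low arrays. For the others it was -0.026 for *Sema4a*, 0.66 for *Sema4c*, 0.065 for *Sema4d* and 0.31 for *Sema4f*, so that *Sema4a* and *Sema4d* changed sign. *Sema4g*, *Sema5a* and *Sema5b* were not detected.

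**Figure D3:**
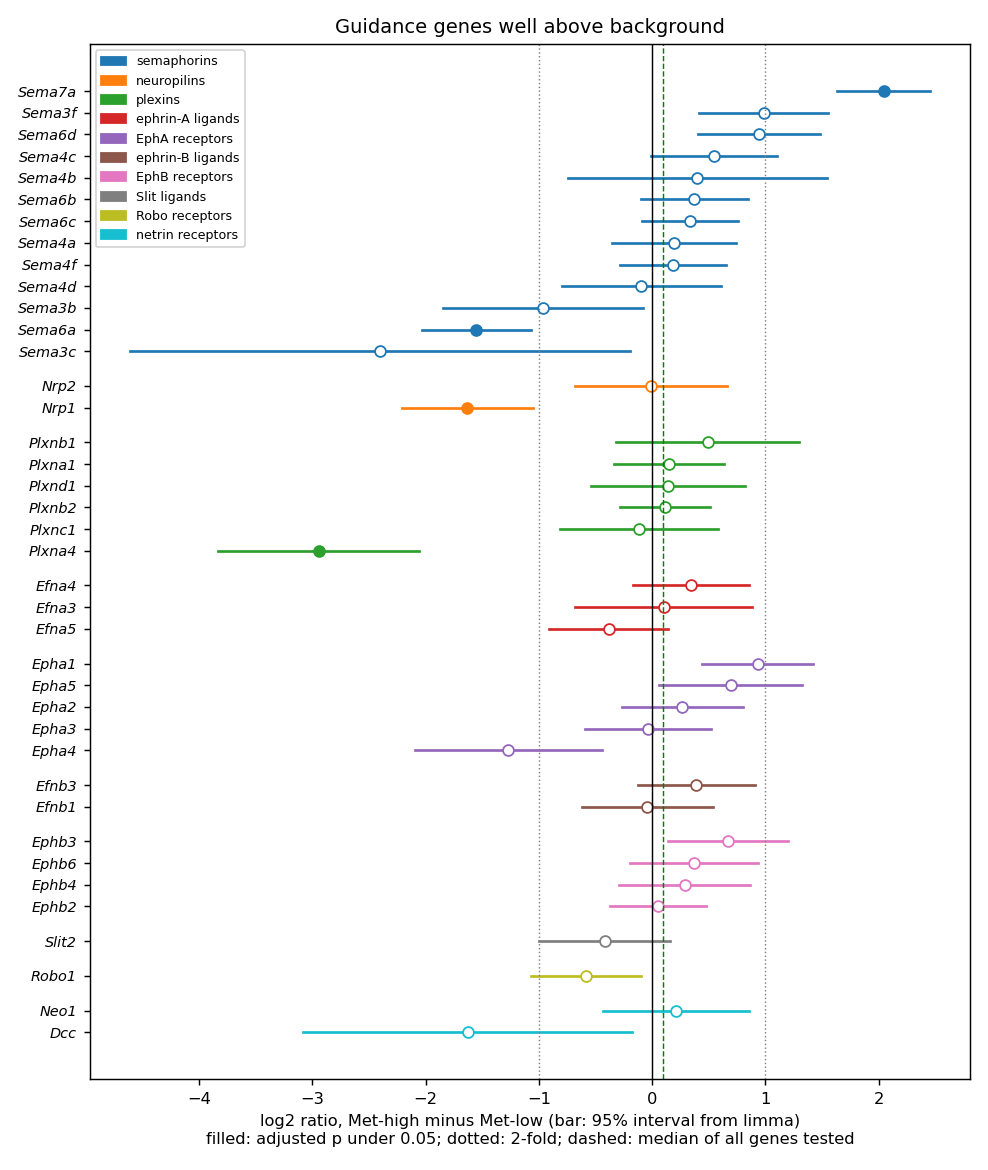
Log2 ratio of the 39 guidance genes well above background, by family, with 95% intervals from limma for single genes; filled points have an adjusted p under 0.05, dotted lines mark 2-fold and the dashed line the median of all genes tested, 0.10. Plxna4, Nrp1 and Sema6a lie to the left and Sema7a to the right, and most other intervals include 0.

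For *Nrp1* and *Sema7a*, which changed in opposite directions, the 250 bases before the gene's start in RefSeq (build GRCm38.p6) are shown, both on the plus strand, with matches to the GC-box GGGCGG in capitals. *Plxna4* and *Sema6a* had no entry in the promoter table used, and 55 of the 65 genes had one. The stretches are chr8:128358823-128359072 for *Nrp1* and chr9:57939862-57940111 for *Sema7a*.
Nrp1: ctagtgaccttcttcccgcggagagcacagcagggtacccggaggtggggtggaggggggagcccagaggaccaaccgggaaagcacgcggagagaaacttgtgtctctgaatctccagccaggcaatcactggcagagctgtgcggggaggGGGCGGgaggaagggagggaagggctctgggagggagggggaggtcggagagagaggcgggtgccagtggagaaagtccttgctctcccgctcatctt
Sema7a: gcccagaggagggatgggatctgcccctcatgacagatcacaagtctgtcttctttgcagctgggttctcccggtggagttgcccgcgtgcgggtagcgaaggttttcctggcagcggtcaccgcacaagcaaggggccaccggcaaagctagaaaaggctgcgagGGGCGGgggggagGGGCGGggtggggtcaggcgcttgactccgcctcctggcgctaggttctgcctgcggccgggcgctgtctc
On either strand, the GC-box matched once before *Nrp1*, at position -98 from the gene's start, and before *Sema7a* at positions -84 and -71. It was found in 32.7% of 32851 such stretches in the table, so a match here is common. The E-box CACGTG (in 6.02% of stretches), the M-box TCATGTG known from melanocyte genes (3.25%), the E2-box CACCTG (17.2%) and the AP-1 site TGANTCA (6.75%) matched in neither. These are letter matches in 1 window, and no binding was measured.

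Of the EphA receptors, which take up signals from ephrin-A ligands, *Epha4* (NM_007936), a receptor that also binds ephrin-B ligands, was at -2.61 and -3.16 in Met-low and at -3.78 and -4.54 in Met-high cells. Its arrays did not overlap, and the ratio of -1.27 (limma adjusted p = 0.0901, standard error 0.33) was past 2-fold but not past the adjusted p. Without Met-high replicate 2 the ratio was -0.89 (adjusted p = 0.152), under 2-fold, while leaving out Met-high replicate 1 gave -1.66 (adjusted p = 0.0135). *Epha1* and *Epha5* had the higher mean in Met-high cells, with ratios of 0.93 (adjusted p = 0.0592) and 0.70 (adjusted p = 0.163). *Epha1* was at -4.50 and -4.68 in Met-low and at -3.49 and -3.84 in Met-high cells, with Met-low replicate 1 not above background. It passed the filter through the Met-high arrays, where it was higher, and without Met-high replicate 2 its ratio was 1.11. *Epha2* differed by 0.26 (95% interval -0.27 to 0.80) and *Epha3* by -0.04 (-0.60 to 0.52). The ratios without Met-high replicate 2 were 0.87 for *Epha5*, 0.50 for *Epha2* and 0.19 for *Epha3*, the last with its sign changed.

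The ligands of these receptors showed no difference past the test. *Efna3* had a ratio of 0.10 (adjusted p = 0.864), *Efna4* 0.34 (adjusted p = 0.339) and *Efna5* -0.38 (adjusted p = 0.30). *Efna5* was at 0.93 and 0.79 in Met-low and at 0.70 and 0.26 in Met-high cells. The ephrin-A ratios without Met-high replicate 2 were 0.47 for *Efna3*, 0.19 for *Efna4* and -0.17 for *Efna5*. *Efna1* and *Efna2* were not detected.

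All 4 detected EphB receptors had the higher mean in Met-high cells, except that *Ephb2* fell below 0 with the percentile over detected probes and without replicate 1 of either population, and none passed the adjusted p in limma, *Ephb3* alone being under 0.05 before adjustment. *Ephb3* was at 5.51 and 5.22 in Met-low and at 6.22 and 5.85 in Met-high cells, a ratio of 0.67 (standard error 0.21, adjusted p = 0.132). The ratios of *Ephb6*, whose kinase domain is inactive, of *Ephb4* and of *Ephb2* were 0.37, 0.29 and 0.05. A second probe of *Ephb4* was above background on all arrays. Of the ephrin-B ligands, *Efnb1* differed by -0.04 (95% interval -0.62 to 0.54) and *Efnb3* by 0.39 (-0.13 to 0.90). Leaving out Met-high replicate 2 gave 0.86 for *Ephb3*, 0.0998 for *Ephb6*, 0.47 for *Ephb4*, 0.15 for *Ephb2*, -0.023 for *Efnb1* and 0.43 for *Efnb3*. *Efnb2*, the ligand of EphB4 in arteries, was at -4.96 and -5.27 in Met-low and at -7.24 and -7.13 in Met-high cells but above background on no array, so no ratio is given.

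The netrin receptor *Dcc* (NM_007831) was at -0.77 and 0.90 in Met-low and at -1.91 and -1.23 in Met-high cells, without overlap but with the Met-low arrays far apart. Its ratio was -1.63 (limma adjusted p = 0.158, standard error 0.57) and -1.97 without Met-high replicate 2. It was -2.47 without Met-low replicate 1 but -0.79, under 2-fold, without Met-low replicate 2. A further 2 probes of *Dcc* were above background on no array, and the mean of its probes gave -0.70. *Neo1*, which encodes neogenin, differed by 0.21 (95% interval -0.43 to 0.85), with overlap. *Robo1*, the receptor of Slit proteins, was at -0.49 and -0.69 in Met-low and at -1.01 and -1.34 in Met-high cells, a ratio of -0.59 (adjusted p = 0.14), and its ligand *Slit2* had a ratio of -0.42 (adjusted p = 0.304). Leaving out Met-high replicate 2 gave 0.40 for *Neo1*, -0.42 for *Robo1* and -0.15 for *Slit2*.

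**Figure D4:**
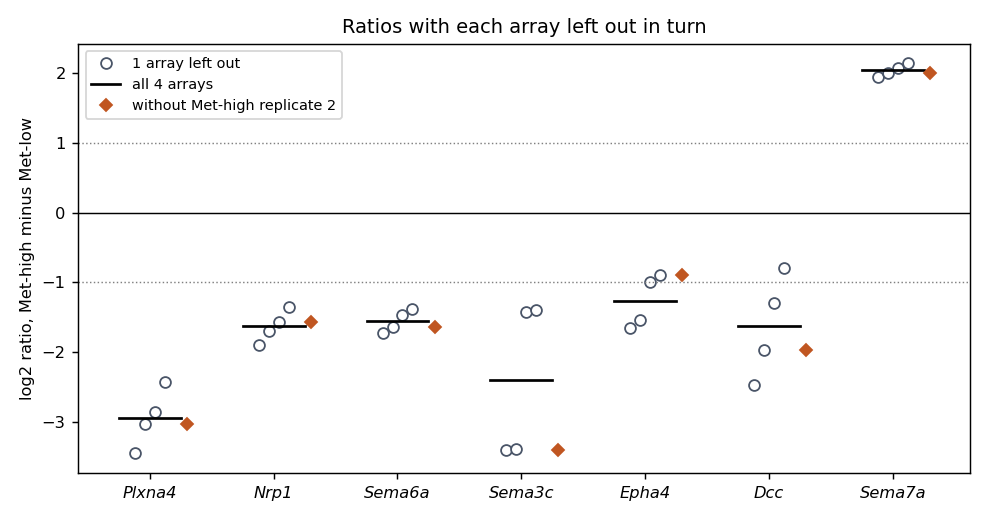
Log2 ratio of the 7 named guidance genes with all 4 arrays (lines) and after leaving out any single array (circles), the value without Met-high replicate 2 being repeated as a diamond. Sema7a stays between 1.95 and 2.14, while Sema3c spans -3.41 to -1.40, Dcc -2.47 to -0.79 and Epha4 -1.66 to -0.89.

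Of the 39 genes, 11 had more than 1 probe. For 4 of these, *Nrp2*, *Plxnc1*, *Plxnd1* and *Ephb4*, the second probe was also above background on all arrays. For the other 7, *Plxna4*, *Sema3c*, *Sema6d*, *Dcc*, *Epha5*, *Ephb6* and *Efna3*, no further probe was above background on any array. Whether such a probe misses the transcript present in these cells or the brighter one reports another RNA was not tested.

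Other genes of the same pathways, listed from general knowledge, were also compared: 24 further cues and receptors, 37 cytoplasmic effectors and 12 regulators of the actin cytoskeleton. Of these 73 genes, 48 were well above background, limma called 2 higher in Met-low cells and 0 higher in Met-high cells, with 14 at an unadjusted p under 0.05 (29.2%, against 26.2% of all genes), and the median ratio was -0.02. The 2 called are 4.17% of the 48, near the 3.82% of all genes. The 2 genes were *Rock1* and *Rock2*, kinases that drive the contraction of actomyosin. *Rock1* (NM_009071) was at -2.79 and -2.83 in Met-low cells and at -5.82 and -6.79 in Met-high cells, where the probe was not well above background. Met-low cells had at least 4.89-fold higher signal (limma adjusted p = 0.00989), a bound that sets the Met-low mean against whichever is higher on each Met-high array, the probe's own signal or the dimmest signal flagged as well above background. With normexp background correction and its offset of 50 the calculated ratio of *Rock1* was -1.21, a 2.31-fold difference. The offset lowers ratios of dim signals, and the bound was calculated for the main background correction alone. *Rock2* (NM_009072) was at -1.56 and -1.25 in Met-low and at -4.44 and -3.53 in Met-high cells, a ratio of -2.58 (limma adjusted p = 0.0197, standard error 0.33). In Met-high cells the second probe of *Rock1* was not above background either, and its signal in Met-low cells exceeded it at least 4.11-fold (adjusted p = 0.0733). The second probe of *Rock2* gave -2.49 (adjusted p = 0.0859). These came from a separate limma fit of second probes, which called 13 genes higher in Met-low and 0 higher in Met-high cells. Neither gene passed the threshold there, at unadjusted p of 0.00126 and 0.00204. With dim probes kept in the fit both calls were lost (adjusted p = 0.0792 and 0.109), where 7 and 0 of all genes were called. Both were called without Met-high replicate 2 (adjusted p = 0.000469 and 0.000552), *Rock1* again against a signal not above background.

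Of the 30 detected effectors, 0 passed the adjusted p in limma and 8 (26.7%) were under 0.05 before adjustment, near the 26.2% of all genes. Their ratios ran from -0.93 for *Dpysl3*, a collapsin response mediator (adjusted p = 0.0767), to 0.81 for *Dpysl5* of the same family (adjusted p = 0.119). Of the 8 further cues and receptors detected, *Unc5b*, a repulsive netrin receptor, had the ratio -1.06 (adjusted p = 0.0842) and 0 passed the adjusted p. Before adjustment 3 of the 8 (37.5%) were under 0.05, against 26.2% of all genes.

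**Figure D5:**
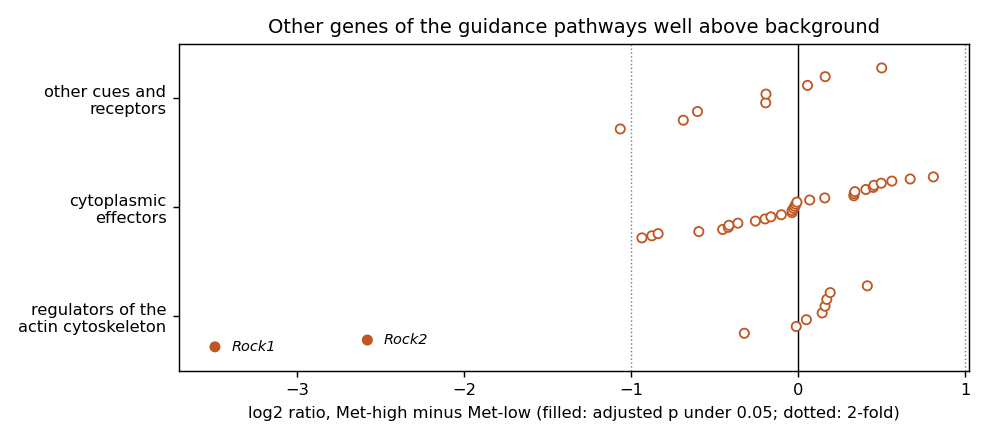
Log2 ratio of the 48 other genes of the guidance pathways that were well above background, in the 3 lists, with filled points at an adjusted p under 0.05 and dotted lines at 2-fold. Rock1 and Rock2 lie apart at the left, the point of Rock1 being its calculated ratio, and no gene is past 2-fold on the right.

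Markers of other cells were compared beside these results. Of 5 fibroblast markers, *Col1a2* alone was detected and fell in Met-high cells, from -0.97 and -0.73 to -2.0 and -1.89 (ratio -1.10, adjusted p = 0.0311 from limma). The summed linear signal of the 5 was 0.62 to 0.68 of the 75th percentile in Met-low and 0.31 to 0.35 in Met-high cells. Of the others, *Col1a1* was above background on Met-low replicate 1 alone, at -3.65, *Col3a1* on Met-high replicate 1 alone, and *Pdgfra* and *Dcn* on no array. The summed signal of 5 endothelial markers was 5.60 to 6.42 in Met-low and 6.89 to 8.58 in Met-high cells, most of it from *Kdr*. Of 4 keratinocyte and 5 neuronal markers, 1 and 3 were detected and 0 passed the adjusted p in limma, with 0 and 1 under 0.05 before adjustment. Their summed signals ran from 0.116 to 0.208 in Met-low and from 0.106 to 0.126 in Met-high cells for keratinocytes, and from 6.34 to 8.50 and from 5.87 to 6.38 for neurons. The part of such cells in the results above was not tested.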

How the data were processed

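Cy3-labelled total RNA of the sorted cells was measured on 1-colour Agilent arrays. The deposited scanner files hold intensity values per spot, which the authors extracted with Agilent Feature Extraction (10.7.3.1 per the submitters' processing notes, while the file headers name another version) with background subtraction. The authors' deposited value table holds log2 values scaled to the 75th percentile of each array and centred on each probe's median (column medians 0.148, -0.0352, 0.0352 and -0.117), and it was used as an alternative. From the scanner intensities, log2 was taken after a floor of 0.01 and the 75th percentile of each array was subtracted. Outlier spots and controls were left out, spots of a probe were averaged, and the brightest probe stood for a gene. Of 39429 probes, 27427 received a symbol through RefSeq. Genes flagged well above background on each array of a population (11958 of 20832) were tested with limma 3.58.1 in R 4.3.3, two-sided, with Benjamini-Hochberg adjustment. The procedure was tested on simulated data. The 75th percentile intensity was 858 to 1331 and 50.0% to 53.6% of spots were well above background. The arrays give no read depth, and their number limits the precision.

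Genes were named with every array's value where the adjusted p was under 0.05 or the means differed by more than 2-fold, and their textbook partners with ratio and p. Values of further genes were chosen after they were seen. The guidance genes and all lists were chosen with earlier results of these data known. Alternatives were the background correction, normalization, percentile, filters, probe rule, fitted trend, replicate block and leaving out each array. Python 3.11.15 was used for tables and motif searches. Some items of the marker and pathway lists are not reported here.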

Additional observations from a re-analysis of the deposited data

How the results depend on the processing

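With 2 arrays a population on 1 slide with 1 scan, no block for slide or scan could be fitted, and dim signals limit the genes near background. The counts of guidance genes at an adjusted p under 0.05 were 3 (higher in Met-low) and 1 (higher in Met-high). With dim probes kept in the fit they were 0 and 0 in limma, where 7 and 0 of all genes were called. The 2-fold counts were then 11 and 2, and the other pathway genes called were 0. Before adjustment, 12 of 65 guidance genes and 10 of 73 other pathway genes were under 0.05 in that fit. These sets include genes not above background, so the counts cannot be set beside those of the filtered fit. Quantile normalization gave 2 called higher in Met-high cells, against 221 of all genes, and 3 past 2-fold. The mean-variance trend gave 2 called in Met-high cells, against 392 of all genes, and normexp 3 past 2-fold in Met-low cells. The mean of a gene's probes gave 2 past 2-fold in Met-high cells. Among them *Efna3*, at 1.29, had no value for its dim probe on Met-high replicate 2, so the bright probe alone stood for that array. Its probes taken singly gave 0.10 and -0.13. The stricter filter, under which *Sema3c*, *Epha1* and *Efnb3* had no value, left 1 other pathway gene. Leaving out any single array, the counts called were 4 to 5 (Met-low) and 1 to 2 (Met-high), those past 2-fold 5 to 7 and 1 to 5, and other pathway genes called higher in Met-low cells 2 to 4. Each of these fits leaves 1 population with a single array. The counts without an array, and the 2-fold counts of all alternatives, were not set beside those of all genes. Whether they moved with the whole array was therefore not tested. With the percentile over detected probes *Efna3* changed sign to -0.046 and *Plxnd1* to -0.0086. *Efnb1* changed sign to 0.057 with normexp and to 0.038 with quantile normalization. With any single array left out, those of 21 genes followed individually that changed sign spanned -0.27 to 0.47 (*Efna3*), -0.32 to 0.24 (*Efnb1*), -0.31 to 0.28 (*Nrp2*), -0.40 to 0.17 (*Plxnc1*) and -0.15 to 0.42 (*Plxnd1*). Over all 39 guidance genes tested, 27 kept one direction in every alternative. Of 295 alternative values over 21 genes, 264 kept direction and side of the threshold. The filters, the trend and the replicate block leave a ratio unchanged by construction, as does the mean of probes for genes with 1 probe. Direction could not change in these, so part of both counts was fixed in advance. The cause of the changes was not tested.

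The replicate numbers are shared only as numbers: the deviations of same-numbered arrays correlated at 0.539 over 11947 genes, and no label ties them to a common batch. With the replicate as a block, the guidance genes called were 8 (higher in Met-low) and 8 (higher in Met-high), and 10 and 6 of the other pathway genes. Over all genes the block called 13.2% and 16.5%, so the rise was array-wide, and *Sema3c*, *Epha4* and *Dcc* were among those called (limma adjusted p = 0.00282, 0.00725 and 0.0198).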
